A study of Rattus norvegicus with 6 samples.

Results

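The cytosolic ribosomal proteins were represented by 57 of the 31099 probe sets on a rat expression array, and these 57 probe sets stood for 49 gene symbols. A probe set, the group of short probes read together for a transcript, was counted when its platform annotation held a single symbol that starts with Rpl or Rps and a digit, or is Rplp0 or Rpsa, leaving out pseudogenes and the Rps6ka and Rps6kb kinases. By role, 29 genes encoded proteins of the large ribosomal subunit, 14 proteins of the small subunit and 1 the stalk protein Rplp0. A further 4 genes were listed as paralogs (Rpl3l, Rpl7l1, Rpl26l1 and Rps27l). Rpl39l1 and Rps4y2, whose symbols also point to paralogs, were counted with the large and the small subunit. The remaining 1, Rps6kc1, is a kinase-related gene that the letters of the rule bring in.

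The signals came from the livers of 6 male rats of the strain BrlHan:WIST@Jcl(GALAS), with 1 array per animal. The 3 control animals received a powdered diet without the compound, and the 3 treated animals received a diet with epsilon-momfluorothrin, a synthetic pyrethroid insecticide, for 2 weeks. All were 7 weeks old at sampling, and the labels name no other agent or allele. The dose of the treated diet is 3000 ppm in the titles and the treatment protocol and 5000 ppm in the other labels, so the group is called momfluorothrin here. The labels call the animals of a group biological replicates, and none says that equal numbers share a litter, cage or day.

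The ribosome is built from a small subunit, which reads the mRNA, and a large subunit, which joins amino acids. Its proteins are made in equal amounts, mostly from long-lived, abundant mRNAs, and a hepatocyte, which secretes most plasma proteins, holds many ribosomes. Most of these mRNAs start with a C followed by a run of pyrimidines, the terminal oligopyrimidine motif, through which mTOR signalling governs their translation. That control acts on the use of the mRNA, which an array of mRNA levels does not read.

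Pyrimidine runs near the annotated start are shown here for some genes of the comparison below. Each line gives 30 bases before the annotated start and 20 bases from it, 5′ to 3′ on the gene's strand, from RefSeq on assembly GRCr8. The capitals mark the longest run that begins with C and continues with at least 4 pyrimidines (C or T) among those that reach into the 20 bases on either side of the start. Rplp0, at chr12:46718371-46718420 on the minus strand, Rpsa, at chr8:128728849-128728898 on the plus strand, and Rpl12, at chr3:36661910-36661959 on the plus strand, are shown with Rps15a, at chr1:181860265-181860314 on the minus strand, and Rpl22, at chr5:168117931-168117980 on the plus strand, because these 5 genes held the 6 probe sets with an unadjusted p under 0.05. Rpl37a, at chr9:81748061-81748110 on the plus strand, is shown as the bright member with the lowest difference.
Rplp0: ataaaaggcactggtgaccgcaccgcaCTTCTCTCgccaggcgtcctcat
Rpsa: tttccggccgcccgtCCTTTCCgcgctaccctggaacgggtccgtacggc
Rpl12: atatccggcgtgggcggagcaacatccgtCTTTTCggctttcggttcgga
Rps15a: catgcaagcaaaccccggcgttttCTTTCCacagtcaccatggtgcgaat
Rpl22: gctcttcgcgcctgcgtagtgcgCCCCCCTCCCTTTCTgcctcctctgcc
Rpl37a: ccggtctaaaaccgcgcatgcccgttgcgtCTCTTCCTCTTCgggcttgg
The run starts exactly at the annotated start base, position 31 of the window, in Rpl37a. In Rplp0, Rpl12 and Rpl22 it lies across that base. In Rpsa and Rps15a it ends before that base, outside the mRNA as annotated. Runs that do not begin at the start base are not shown to be the terminal oligopyrimidine motif.

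Of 48 ribosomal and paralog genes looked up, 43 had an entry in the promoter table, and Rpl23a, Rpl27, Rpl30, Rpl7 and Rps29 did not. A C followed by at least 4 pyrimidines began at the annotated start base in 12 of the 43 genes (27.9%), against 538 of 21807 other coding genes (2.47%). Within 20 bases of the start on the gene's own strand such a run was found in 34 genes (79.1%, against 44% of other genes). On the opposite strand it was found in 11 (25.6%, against 49.3%). In the window from 250 bases before the start to 50 after it, CCGGAA, the letters read by ETS factors, was present on either strand in 17 genes (39.5%, against 17.6%). AAGATGGC, the core letters of the YY1 motif, was present in 4 (9.3%, against 3.66%), and TATAAA in 6 (14%, against 13%). These are matches of letters, and no binding was measured.

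Of the 57 probe sets, 49 (43 genes) exceeded the median signal of the array on 3 or more of the 6 arrays and were tested. The other 8 were Rpl14 (1375375_at), Rpl3l, Rpl39l1, Rpl30, Rps6kc1 (1390689_at), Rps13, Rpl26l1 and Rpl28, and 7 of these were over the median on no array. Rpl3l, a striated-muscle paralog of Rpl3, read between 1.26 and 7.96 on the 6 livers, where array medians lay between 23.1 and 29.4. A low signal of a probe set does not show that the mRNA is scarce: Rpl14 read between 942 and 1135 on its other probe set. Rplp1, Rplp2, Rpl10a, Rps14, Rps19 and Rps4x had no probe set with a single symbol.

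No ribosomal protein probe set passed an adjusted p of 0.05 in limma, in either direction, against 0.171% of all 15778 tested probe sets (27 called). The differences of the members were small and mostly of the same sign: 39 of 49 were positive, with a median log2 difference, momfluorothrin minus control, of 0.09 (1.06-fold) and quartiles of 0.02 and 0.13. Over all tested probe sets the median was -0.03 and 43.7% were positive. At an unadjusted p under 0.05, 6 members (12.2%) were higher, against 4.92% of all tested probe sets, and 0 were lower, against 6.64%. All 3 treated arrays lay above all 3 controls for 8 members (16.3%), against 7.4% of all, and below them for 1 (2.04%), against 10.4%. The signals overlapped for the remaining 40.

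**Figure D1:**
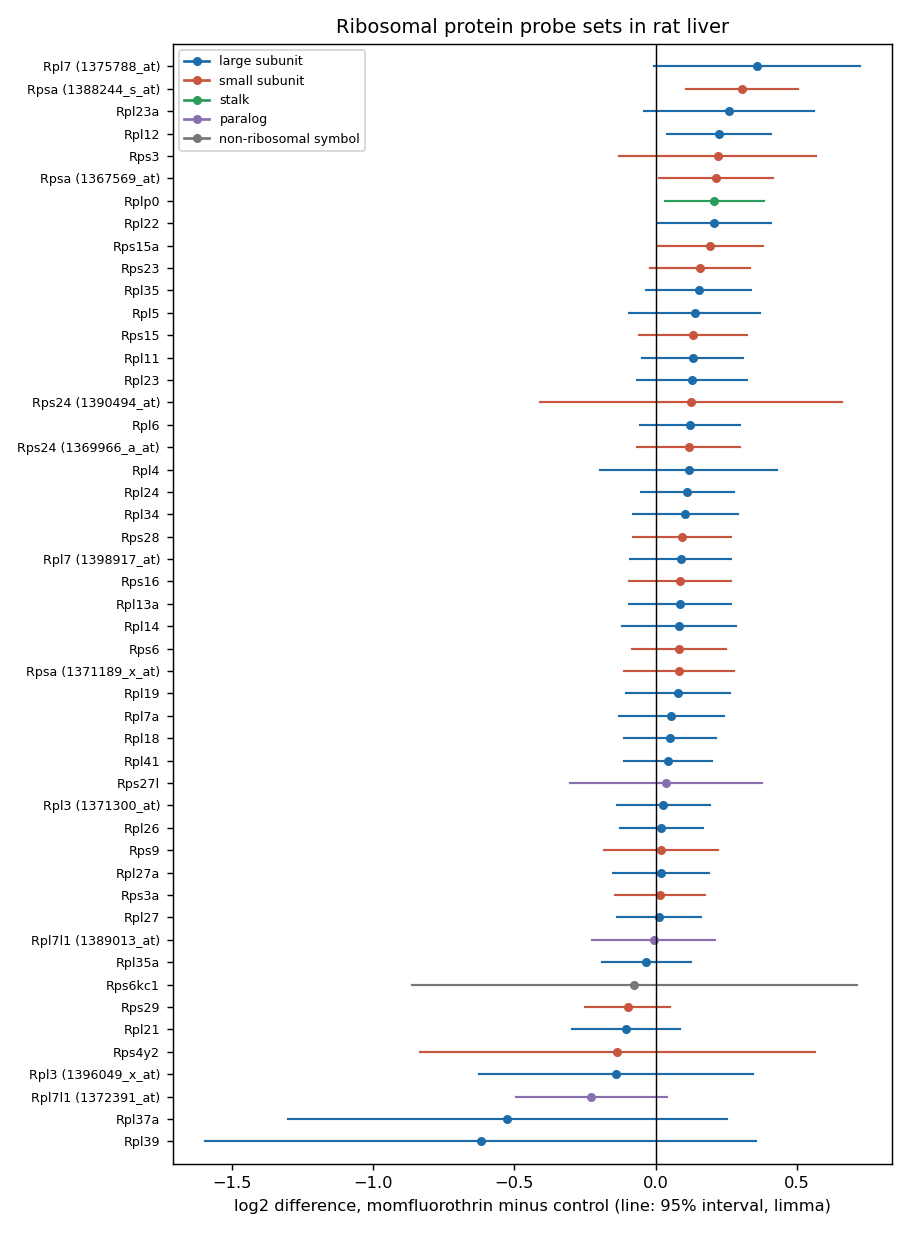
Log2 difference of signal, momfluorothrin minus control, for the 49 tested ribosomal protein probe sets, with 95% intervals from limma (n = 3 arrays each), coloured by role. The points lie between -0.62 (Rpl39) and 0.36 (Rpl7, 1375788_at), 39 of them above 0, and the widest intervals belong to Rpl39, Rps6kc1 and Rpl37a.

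Probe sets of equal brightness were compared next, since ribosomal proteins are among the brightest probe sets and bright probe sets vary less. In all, 38 of the 49 lay in 3 bands of mean signal from 1024 to 8192, each spanning a doubling, which held 843 other probe sets. In these bands 34 of 38 members were positive (89.5%), against 50.7% of the others, and the medians were 0.09 and 0.00. The count past an unadjusted p of 0.05 did not stand apart: 5 members were higher (13.2%), against 11.5% of the others of the same bands. None was lower, against 8.9%. All treated arrays lay above all controls for 6 (15.8%, against 14.5%) and below them for 1 (2.63%, against 11.3%). The median member difference was 0.12 between 1024 and 2048 (14 members, 0.03 for 447 others) and 0.08 between 2048 and 4096 (22 members, 0.00 for 254 others). In the same order, 85.7% and 95.5% of members were positive, against 58.6% and 50.4% of the others. The 2 members between 4096 and 8192, Rpl26 and Rps29, had a median of -0.04, where 142 others had -0.08. There 1 of the 2 members was positive, against 26.1% of the others. At an unadjusted p under 0.05, 6.04%, 9.45% and 16.9% of the others were lower, from the dimmest to the brightest band. The 11 dimmer members had a median of -0.01, with 5 positive. The probe sets share 6 arrays and are not independent, so these counts are descriptions.

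**Figure D2:**
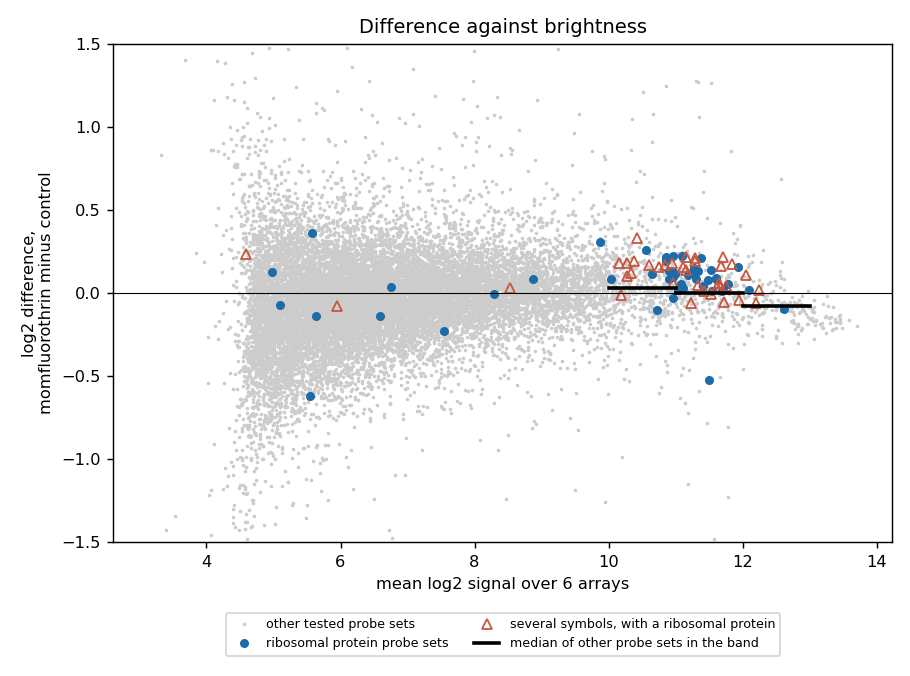
Log2 difference of signal, momfluorothrin minus control, against mean log2 signal over 6 arrays for all tested probe sets (grey), ribosomal protein members (filled circles) and probe sets with several symbols of which at least 1 is a ribosomal protein (open triangles); bars give the median of other probe sets in each band, and probe sets beyond 1.5 in size are not drawn. Most members sit on the right, above bars at 0.03, 0.00 and -0.08.

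Among the proteins that bind translation factors, Rplp0, the base of the large subunit's stalk, had signals of 2337, 2434 and 2673 in control livers and of 2742, 2955 and 2896 in treated livers. Every treated value was above every control value, and the log2 difference was 0.21 ± 0.08 (SE; limma adjusted p = 0.371). Rpl12, which sits beside the stalk, read 1895, 2083 and 2079 in the controls and 2193, 2380 and 2507 in the treated livers. These groups did not overlap either, with a log2 difference of 0.22 ± 0.08 (limma adjusted p = 0.353). Neither passed the adjusted threshold.

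Rpsa, a small subunit protein also known as a laminin receptor, was read by 3 probe sets. On 1388244_s_at the signals were 786, 852 and 893 in the controls and 969, 1084 and 1077 in the treated livers (log2 difference 0.31 ± 0.09, limma adjusted p = 0.254, the lowest of the members). On 1367569_at they were 1564, 1806 and 1801 against 1848, 2102 and 2044 (0.21 ± 0.09, limma adjusted p = 0.421). The groups were apart on both. On 1371189_x_at the signals were 426, 475 and 469 against 473, 486 and 488, which overlapped, with a log2 difference of 0.08 ± 0.09. The endings _s_at and _x_at mark probes that can bind more than 1 transcript, so the 3 probe sets need not read the same mRNA.

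Of the other small subunit proteins, Rps15a read 1617, 1702 and 1869 in the controls and 1901, 1933 and 2094 in the treated livers, without overlap (0.19 ± 0.08, limma adjusted p = 0.427). Rps3, which lies where the mRNA enters, read 1854, 1688 and 2047 in the controls and 1656, 2478 and 2464 in the treated livers. Its treated replicate 1 was the lowest of all 6, and the log2 difference was 0.22 ± 0.15. Rps6, the protein phosphorylated downstream of mTOR, read 2850, 3080 and 3104 against 3035, 3363 and 3168, an overlap (0.08 ± 0.07). Rps29 was the only member with every treated signal below every control, at 6217, 6445 and 6791 against 6143, 5826 and 6183 (-0.10 ± 0.07, limma adjusted p = 0.594). Small subunit members had a median log2 difference of 0.11, with 14 of 16 positive. At an unadjusted p under 0.05, 3 (18.8%) were higher, against 4.92% of all tested probe sets. In the bright bands 2 of 12 (16.7%) were higher, against 11.5% of the others there.

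Large subunit members had a median of 0.08, with 23 of 28 positive. At an unadjusted p under 0.05, 2 (7.14%) were higher, against 4.92% of all tested probe sets. Both lay in the bright bands, where they were 2 of 25 (8%), against 11.5% of the others there. Rpl22, an RNA-binding protein of the large subunit, was 1 of the 2, beside Rpl12. It read 1637, 1746 and 1816 in the controls and 1801, 2087 and 2129 in the treated livers, where treated replicate 1 fell below control replicate 3 (0.21 ± 0.09, limma adjusted p = 0.423). Rpl5 and Rpl11, which bind the p53 regulator Mdm2 when they are not in a ribosome, had overlapping groups. Rpl5 read 2676, 2827 and 2985 against 2695, 3181 and 3514 (0.14 ± 0.10), and Rpl11 read 2304, 2587 and 2485 against 2514, 2771 and 2795 (0.13 ± 0.08). Rpl13a, known from selective repression of inflammatory mRNAs, read 1821, 1770 and 1988 against 2000, 1858 and 2066 (0.09 ± 0.08).

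Rpl6 and Rpl24, which forms a bridge to the small subunit, had groups that did not overlap at small differences. Rpl6 read 2201, 2466 and 2573 against 2629, 2623 and 2618 (0.12 ± 0.08). Rpl24 read 1862, 2010 and 2034 against 2066, 2111 and 2208 (0.11 ± 0.07). Rpl7 on the dim probe set 1375788_at read 38.2, 45.8 and 42.0 against 53.7, 54.6 and 53.0 (0.36 ± 0.16, limma adjusted p = 0.438). On its bright probe set, 1398917_at, Rpl7 read 2940, 3132 and 2974 against 2936, 3410 and 3289 (0.09 ± 0.08), so the larger difference was not seen there. Rpl3, which reaches towards the peptidyl transferase centre, read 2105, 2311 and 2159 against 2231, 2308 and 2160 (0.03 ± 0.07), and on the dim probe set 1396049_x_at its difference was -0.14 ± 0.21. The sign of the bright Rpl3 probe set turns under quantile normalization.

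**Figure D3:**
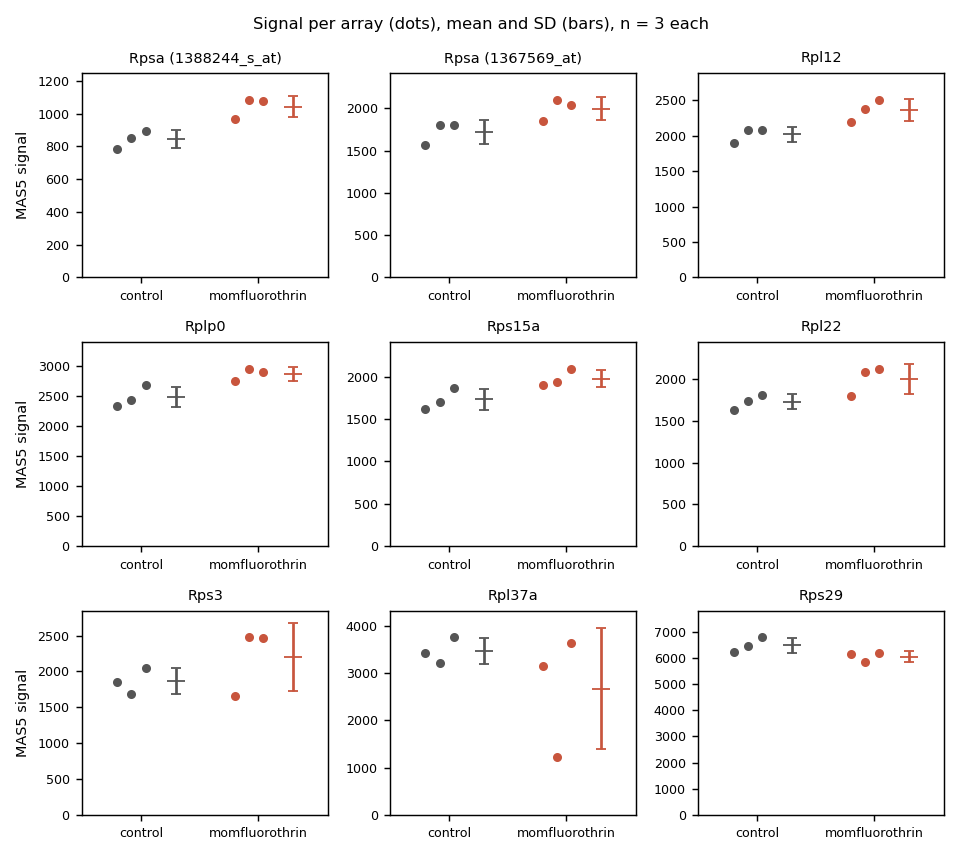
MAS5 signal on each array (dots) with mean and SD (n = 3 each) for 9 ribosomal protein probe sets, each axis starting at 0. The groups are apart for both Rpsa probe sets shown, Rpl12, Rplp0 and Rps15a, overlap for Rpl22 and Rps3, and a single treated value lies far below the rest for Rpl37a, while for Rps29 the treated values are lower.

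Rpl37a and Rpl39 had the lowest differences and were singled out after their values were seen. Rpl37a, a zinc-binding large subunit protein, read 3436, 3222 and 3762 in the controls and 3153, 1216 and 3645 in the treated livers. Treated replicate 2 alone was low: the log2 difference was -0.53 ± 0.34 with it and -0.03 without it. Rpl39, a very small protein of the exit tunnel, had dim signals of 48.7, 56.2 and 70.0 against 80.9, 31.2 and 21.0 (-0.62 ± 0.43), and its treated values spanned both ends of the range. Without treated replicate 3 the difference of Rpl39 was -0.20, and without treated replicate 1 it was -1.17.

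A few further members were picked after their values were seen, to show both ends of the range. Rpl23a, at the mouth of the exit tunnel, read 1275, 1204 and 1687 in the controls and 1475, 1699 and 1771 after treatment. The groups overlapped through control replicate 3 (0.26 ± 0.13, limma adjusted p = 0.493). Rps23, at the decoding centre, read 3541, 3675 and 3848 against 3758, 4266 and 4332 (0.16 ± 0.08), and Rpl35 read 2235, 2371 and 2467 against 2392, 2700 and 2779 (0.15 ± 0.08). In both, treated replicate 1 lay among the controls and the other treated arrays above them.

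Near 0, Rpl27 read 2925, 2925 and 3112 in the controls and 2975, 3022 and 3043 after treatment (0.01 ± 0.07, 95% interval -0.14 to 0.16). Rps3a differed by 0.01 ± 0.07 (95% interval -0.14 to 0.17) and Rpl26 by 0.02 ± 0.06 (-0.13 to 0.17). These intervals hold the median member difference of 0.09, so such members are not shown to differ from the others. Rpl4 read 1276, 1616 and 1766 against 1946, 1495 and 1596, where treated replicate 1 was the highest array and control replicate 1 the lowest (0.12 ± 0.14). Rpl21 read 1798, 1835 and 1646 against 1772, 1599 and 1543, an overlap with a negative sign (-0.10 ± 0.08).

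Of the paralogs, Rpl7l1, a nucleolar protein of large subunit assembly, read 214, 187 and 207 against 193, 172 and 155 on 1372391_at (-0.23 ± 0.12) and differed by -0.01 ± 0.10 on 1389013_at. The sign of the latter turns when arrays are centred on their medians. Rps27l, a paralog known as a p53 target, read 107, 102 and 112 against 123, 88.7 and 121 (0.04 ± 0.15), an overlap. The 3 tested paralog probe sets had a median of -0.01. Rps6kc1, which is no ribosomal protein, differed by -0.07 ± 0.35.

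The precision sets what these arrays could show of each member. The 95% interval lay within 1.5-fold in both directions for 42 of 49 members, and for 37 of the 38 bright ones, the exception being Rpl37a. It lay within 2-fold for 47. The 7 members whose interval passed 1.5-fold were Rpl7 (1375788_at), Rps24 (1390494_at), Rps6kc1, Rps4y2, Rpl3 (1396049_x_at), Rpl37a and Rpl39.

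The bright members moved together from array to array, within groups as well as between them. After group means were removed, their residuals had a mean pairwise correlation of 0.45 over the 6 arrays, against 0.05 among the 843 others of the same bands. Their median deviation from the mean of each probe set was -0.13, -0.03 and 0.01 on control replicates 1, 2 and 3 and -0.03, 0.08 and 0.11 on treated replicates 1, 2 and 3. The groups thus overlapped, with treated replicate 1 below control replicate 3. Control replicate 1 was the lowest array for 24 of 38 (63.2%, against 17.4% of the others), and treated replicate 2 or 3 was the highest for 30 (34.8% of the others). The median of the others stayed between -0.02 and 0.04.

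**Figure D4:**
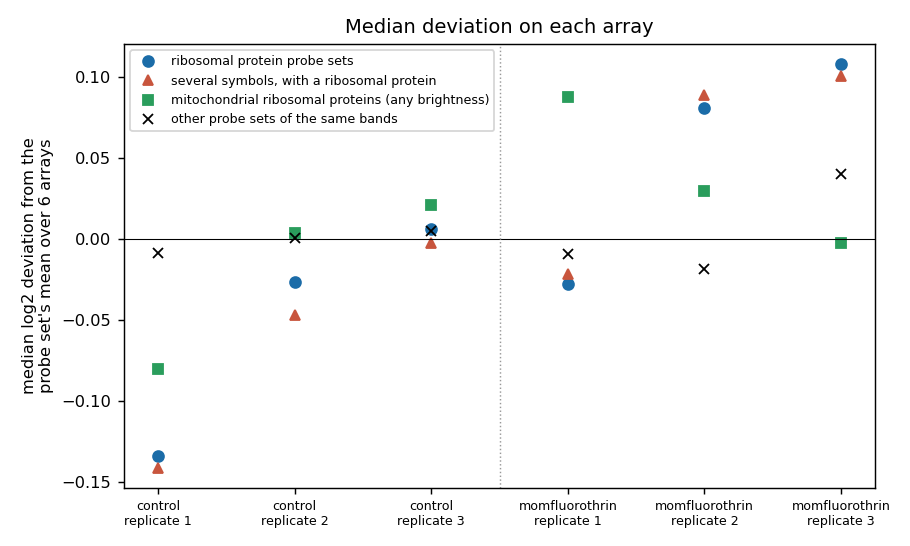
Median log2 deviation from the probe set's own mean over 6 arrays, on each array, for bright ribosomal protein members (circles), bright probe sets with several symbols (triangles), mitochondrial ribosomal proteins of any brightness (squares) and other probe sets of the same bands (crosses). The members run from -0.13 on control replicate 1 to 0.11 on treated replicate 3, and treated replicate 1 lies among the controls at -0.03.

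The 57 probe sets held 1.74%, 1.82% and 1.88% of all signal on the control arrays and 1.86%, 1.94% and 1.98% on the treated arrays, which overlapped (1.81 ± 0.0692% and 1.93 ± 0.0583%, SD, n = 3). Leaving out single arrays moved the count of members higher at an unadjusted p under 0.05 from 6 to 1 without control replicate 1, without treated replicate 2 or without treated replicate 3, the remaining probe set being one of Rpsa each time. The count was 12 without treated replicate 1. The median difference was 0.04 without control replicate 1 and between 0.07 and 0.12 without any other array.

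On measures of the arrays, the median signal was 28.3 ± 1.18 in the controls and 25.2 ± 1.83 in the treated livers (SD, n = 3). The 3′ to 5′ signal ratio, a sign of RNA quality and labelling, was 1.25 ± 0.025 and 1.25 ± 0.0267 for Gapdh. For actin it was 2.24, 2.54 and 2.70 on control replicates 1 to 3 and 2.60, 2.40 and 3.12 on treated replicates 1 to 3 (2.49 ± 0.235 and 2.71 ± 0.37). The arrays with the lowest and highest actin ratio, control replicate 1 and treated replicate 3, were also the lowest and highest of the members, while treated replicate 2 had the second lowest ratio and the second highest member deviation. Its part in the members' differences was not tested. All 8 hepatocyte markers listed were tested. The sum over the brightest tested probe set of each was 56507 to 63412 in the controls and 52130 to 56970 in the treated livers. These ranges overlapped. The median log2 difference of the markers was -0.11, with 1 of 8 positive. Serpina1, Cps1, Ttr, Alb, Apob and Apoa1 read above 4096 on every array, and Hnf4a and Tat below it. Serpina1, Ttr, Alb and Apob had mean signals above 8192. Of the markers, only Cps1 and Apoa1 had a mean signal between 4096 and 8192. Among the other probe sets of that band, the median was -0.08 and 26.1% were positive. In Serpina1, Cps1 and Ttr every treated array lay below every control, as in 24.6% of that band and 10.4% of all tested probe sets. The markers were not compared with probe sets of equal brightness, so a decrease particular to hepatocyte markers was not tested.

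For the other cells of liver, sums were likewise taken over the brightest tested probe set of each marker. The sum over 5 of 6 listed Kupffer cell markers was 860 to 1038 in the controls and 810 to 878 in the treated livers. Over 6 of 7 stellate markers it was 1865 to 2414 and 2077 to 2211, and over 5 of 6 endothelial markers 1761 to 2030 and 1986 to 2115. Blood markers (3 of 5 tested) summed to 3959 to 4192 and 3479 to 5194, and lymphocyte and neutrophil markers (3 of 9 tested) to 112 to 141 and 118 to 145. These ranges overlapped. A sum follows its brightest markers, and single markers could be apart. Eng, an endothelial marker, read 195, 243 and 245 in the controls and 168, 164 and 167 in the treated livers. Lyve1, also endothelial, lay the other way, at 599, 841 and 846 against 1012, 893 and 909. Of 5 biliary markers 1, Epcam, was tested, at 67.1 to 95.1 in the controls and 107 to 138 in the treated livers, without overlap. Over all tested probe sets, 10.4% lay without overlap as lower and 7.4% as higher. No marker in these lists passed the adjusted threshold in limma. At an unadjusted p under 0.05, 2 of 8 hepatocyte, 1 of 5 Kupffer and 1 of 5 endothelial markers were lower. At the same threshold 1 of 5 endothelial markers and the 1 tested biliary marker were higher. Over all tested probe sets, 6.64% were lower and 4.92% higher. Among the other probe sets between 4096 and 8192, 16.9% were lower and 2.82% higher. That band is nearer to most hepatocyte markers in brightness, though Serpina1, Ttr, Alb and Apob were brighter than it. In pieces of liver, fewer cells of a type and less RNA per cell cannot be told apart, and the part of these cells in the members' differences was not tested.

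A further 36 probe sets carried several symbols with a ribosomal protein among them and lie outside the rule. Their median log2 difference was 0.11 and 29 of 36 were positive. At an unadjusted p under 0.05, 6 (16.7%) were higher and 0 lower, against 4.92% and 6.64% of all tested probe sets, and none passed the adjusted threshold. Of the 36, 33 lay in the bright bands, where 6 (18.2%) were higher, against 11.5% of the others there. All treated arrays lay above all controls for 10 of the 36 (27.8%), against 16.3% of the members and 7.4% of all tested probe sets. All 10 lay in the bright bands, where they were 30.3% of the 33, against 14.5% of the others there. The largest difference was on 1388989_at, annotated to Rpl22l1 and its relatives, at 1186, 1333 and 1160 in the controls and 1559, 1421 and 1640 in the treated livers. Those groups did not overlap (0.33 ± 0.09, limma adjusted p = 0.234).

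The genes around the ribosome were described by lists. No gene of these lists passed the adjusted threshold, and higher and lower below refer to an unadjusted p under 0.05 in limma, which 4.92% of all tested probe sets met as higher and 6.64% as lower. Positive differences made up 43.7% of all tested probe sets, and the lists were not compared with probe sets of equal brightness. Of 44 translation initiation genes tested, 4 were higher and 0 lower, with a median log2 difference of 0.09 and 32 positive. The translational repressor Eif4ebp1, a target of mTOR, read 203, 187 and 201 in the controls and 252, 237 and 285 in the treated livers (0.39 ± 0.11, limma adjusted p = 0.243). The initiation factor subunit Eif3k read 191, 170 and 173 against 206, 246 and 260 (0.41 ± 0.12, limma adjusted p = 0.262). The treated signals of both lay above every control.

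Of 11 tested genes of elongation and other mRNAs with the pyrimidine motif, 0 were higher or lower (median 0.02, 6 positive). Of 43 ribosome biogenesis genes, 1 was higher and 2 were lower (median 0.05, 26 positive). Polr1d, a subunit shared by RNA polymerases I and III, differed by 0.23 ± 0.09 and Bysl, a small subunit assembly factor, by -0.52 ± 0.22. Of 18 genes that control ribosomal protein synthesis, 3 were higher and 0 lower (median 0.08, 10 positive). Among the 3 were Eif4ebp1, already counted above with the initiation genes, and Mxd4, an antagonist of Myc, at 0.40 ± 0.14. The ribosomal proteins of mitochondria, which form a separate ribosome, had 7 of 73 genes higher and 1 lower, with a median of 0.07. Of these 73 genes, 52 were positive, so mostly positive differences were not particular to the cytosolic members. Mrpl27 differed by 0.33 ± 0.10 and Mrps5 by 0.39 ± 0.13. By array, the 89 tested mitochondrial probe sets, of any brightness, had their highest median deviation on treated replicate 1, at 0.09. The bright cytosolic members stood at -0.03 on that array.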

How the data were processed

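The values are probe set intensities on a linear scale, deposited as MAS5 output according to the submitters' processing notes; the version of MAS5 is not given in the sources used here. Each array had nearly the same trimmed mean, so no further scaling was applied. The number of arrays limits the precision. The fit left out 57 array control probe sets and every probe set that exceeded its array's median on fewer than 3 of 6 arrays, which kept 15778. For these, log2 signals were compared in limma 3.58.1 (R 4.3.3) by lmFit and by eBayes with its trend option. Tests were 2-sided, and p-values were adjusted over all 15778 by the method of Benjamini and Hochberg. The fit was tested on simulated data with independent noise for each probe set, which does not cover the correlation among the members. Values with ± are log2 differences with SE unless SD is named.

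Symbols came from the platform annotation, in which 20826 probe sets had 1 symbol, 436 several and 9780 none. Signals of different probe sets were not compared. The rule for described members took up to 8 in each direction whose groups do not overlap (8 were higher and 1 lower), a fixed set of well-known members, and per list the 2 lowest p-values. Rpl37a, Rpl39 and the further members so marked in the text were added after their values were seen; all tested members are drawn in a plot. Members, lists, tests and this rule were chosen with earlier results of these data known. Alternatives changed the filter, scaling, pseudocount (16), variance trend, replicate block, choice of probe sets and arrays.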

Additional observations from a re-analysis of the deposited data

How the results depend on the processing

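No member passed the adjusted threshold under any alternative run, and the median member difference stayed between 0.04 and 0.12. The median of the members exceeded that of all tested probe sets by 0.12 in the main fit. This excess ran from 0.07 under quantile normalization to 0.17 with no filter, and was 0.08 without control replicate 1. Without the intensity trend the calls among all tested probe sets went from 27 to 3 and the members higher at an unadjusted p under 0.05 from 6 to 2. With a replicate block the calls went to 15, while the members higher were 7. Residuals of same-numbered arrays correlated at -0.10, 0.10 and -0.06. With 3 arrays a group, such values cannot show whether equal numbers share a litter, cage or day. With probe sets of several symbols added, an alternative chosen after seeing the data, 12 were higher. Leaving out each array in turn gave 5 to 28 calls among all tested probe sets, 1 to 12 members higher and 0 to 2 lower. Of the members named by the rule, signs reversed for Rpl3 (1371300_at) under quantile normalization (-0.0085) and Rpl7l1 (1389013_at) under median centring (0.0283). Over left-out arrays these ran from -0.00077 to 0.0664 and from -0.0549 to 0.0552, Rps27l from -0.0422 to 0.191 and Rpl3 (1396049_x_at) from -0.379 to 0.0621. In all, 12 of 49 tested members changed sign when some array was left out, among them Rpl4 (-0.0181 to 0.216), Rpl27 (-0.00212 to 0.0427), Rps3a (-0.0287 to 0.0457), Rpl26 (-0.00773 to 0.0461) and Rps6kc1 (-0.479 to 0.183). The cause was not tested. The share of positive members was lowest without control replicate 1 (71.4%) and highest with the filter at the 70th percentile (84.1%); it was 73.7% with no filter, 75.5% under quantile normalization and 83.7% under median centring. With 3 arrays a group, differences of the size of most members' were not resolved singly.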
